A study of Mus musculus with 4 samples.

Results

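The miR-106b-25 cluster is a group of microRNAs (miRNAs) made from 3 hairpins inside the gene Mcm7. Its members here were the 4 array probes named mmu-miR-106b-5p, mmu-miR-93-5p, mmu-miR-93-3p and mmu-miR-25-3p (mmu, Mus musculus, is left out from here on), of 1265 mouse miRNA probes. The rule that picks them uses name and locus. Probes for the other strands of these hairpins, miR-106b-3p and miR-25-5p, were also on the array and are given as relatives. Esophageal tissue and serum of L2-IL-1β mice were profiled at 28 and 46 weeks of age on 4 arrays, 1 for each of the 4 groups, so there was no replicate, no test and no p-value. L2-IL-1β mice carry a transgene for human interleukin-1β under a promoter that is active in the squamous epithelium of the mouth, esophagus and forestomach, and develop chronic esophagitis and then Barrett's esophagus, in which columnar cells replace the squamous lining. All 4 samples carry the transgene and the disease label of Barrett's esophagus; mice without the transgene were not analysed here. Sex and the number of mice behind each RNA sample are not given in the sources used here.

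A miRNA is cut from a hairpin in its primary transcript and pairs with messenger RNAs mainly through its seed, bases 2 to 8, to lower their translation and stability. Mcm7 encodes a subunit of the helicase that unwinds DNA for replication, and the cluster in its intron is transcribed with it in proliferating cells, under E2F factors. The cluster is a paralog of the miR-17 to miR-92a cluster. In human cells miR-106b and miR-93 repress the cell cycle inhibitor CDKN1A (p21 protein) and miR-25 the pro-apoptotic gene BCL2L11 (BIM protein), and the human cluster has been reported to increase from Barrett's esophagus to esophageal adenocarcinoma.

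The mature sequences of the 4 members are shown first because their seeds decide which other probes on the array belong beside them. They are from RefSeq (GRCm38.p6), 5′ to 3′, with the seed in capitals.
miR-106b-5p: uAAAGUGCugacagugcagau
miR-93-5p: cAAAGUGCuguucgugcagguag
miR-93-3p: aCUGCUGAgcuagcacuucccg
miR-25-3p: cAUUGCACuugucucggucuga

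MiR-106b-5p and miR-93-5p share 1 seed, miR-25-3p has another, and miR-93-3p has one of its own. The first seed was also held by the probed miR-17-5p, miR-20a-5p, miR-20b-5p, miR-106a-5p and miR-6383, and the second by miR-92a-3p, miR-92b-3p, miR-32-5p, miR-363-3p and miR-367-3p. No other mature mouse miRNA in the RefSeq table has the seed of miR-93-3p. The seed relatives that were bright enough to compare are shown for how little some differ from the members.
miR-17-5p: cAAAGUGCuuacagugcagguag
miR-20a-5p: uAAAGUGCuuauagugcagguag
miR-20b-5p: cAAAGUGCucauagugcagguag
miR-106a-5p: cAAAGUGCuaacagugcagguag
miR-92a-3p: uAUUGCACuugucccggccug
miR-92b-3p: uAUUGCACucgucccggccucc

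Aligned at the 5′ end without gaps, miR-106b-5p was identical to miR-17-5p, miR-20a-5p and miR-106a-5p at 18 of 21 bases each, and to its cluster partner miR-93-5p at 16 of 21. MiR-25-3p was identical to miR-92a-3p at 18 of 21 bases and to miR-92b-3p at 16 of 22. How far probes for such close sequences read each other's RNA was not tested.

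The 3 hairpins lie in 498 bases of the minus strand, at chr5:138165321-138165818 (GRCm38.p6), inside the span of Mcm7 at chr5:138164583-138172111. Read in the direction of transcription, Mir106b comes first, then Mir93, then Mir25. The hairpins are shown because they tell which arm each member comes from; capitals mark the members.
Mir106b, chr5:138165737-138165818: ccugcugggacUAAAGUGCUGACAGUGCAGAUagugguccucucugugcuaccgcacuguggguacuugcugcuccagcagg
Mir93, chr5:138165523-138165610: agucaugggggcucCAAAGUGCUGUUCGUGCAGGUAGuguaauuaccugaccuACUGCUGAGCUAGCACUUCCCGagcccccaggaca
Mir25, chr5:138165321-138165404: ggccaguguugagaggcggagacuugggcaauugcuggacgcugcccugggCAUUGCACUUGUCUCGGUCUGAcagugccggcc

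MiR-93 is the one hairpin with both arms among the members. Members of a hairpin share a precursor, and all 3 hairpins can share a primary transcript, so the members are not independent measurements of a sample.

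The level of a miRNA on an array is its net signal, the median intensity of its spot minus the mean of 1664 BLANK spots, in arbitrary linear units. A miRNA was called detected when the spot exceeded the BLANK mean plus 2 SD, and a stricter limit was the mean plus 2 SD of 97 No Probe spots. By the first limit 853 to 1000 of the 1265 miRNAs were detected on an array, and by the second 573 to 764. Probes differ in how strongly they bind, so net signals are compared between arrays for 1 probe and not between probes. The spot-noise SD given with each value joins the spread of No Probe spots and the relative spread among spike-in spots (3.23% to 5.51%). It leaves out all variation between mice, extractions and hybridisations, and each member was spotted 1 time per array.

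The squamous miRNAs were far brighter in esophagus than in serum, and the erythrocyte miRNA miR-451a far brighter in serum. At 28 weeks the squamous miRNA miR-203-3p had a net signal of 1638 in esophagus against 18.7 in serum, and miR-205-5p 1429 against 35.4. MiR-451a had 86.9 in esophagus and 36871 in serum at that age, while another erythrocyte miRNA, miR-144-3p, had 80.9 and 135. The 4 columnar and glandular miRNAs were all detected in esophagus but dim, with a summed net signal of 98.3 at 28 weeks and 147 at 46 weeks.

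MiR-106b-5p, miR-93-5p and miR-25-3p were well above background in both sample types. The net signal of miR-106b-5p was 120 ± 4.36 (spot-noise SD) in esophagus at 28 weeks and 140 ± 7.62 at 46 weeks, and 660 ± 36.3 in serum at 28 weeks and 291 ± 16.2 at 46 weeks. It was higher in both sera than in either esophagus, and the serum array at 28 weeks stood above the other 3. The net signal of miR-93-5p was 184 ± 6.28 at 28 weeks and 218 ± 11.7 at 46 weeks in esophagus, and 844 ± 46.4 and 688 ± 38.0 in serum. Both sera were again above both esophagus arrays, but here the sera lay close to each other. The net signal of miR-25-3p was 79.3 ± 3.26 and 103 ± 5.76 in esophagus and 921 ± 50.6 and 739 ± 40.8 in serum. Before any scaling of the arrays the order within a sample type also carries each array's overall brightness, so only the gap between tissue and serum stands out here, widest for miR-25-3p.

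MiR-93-3p, the other arm of the miR-93 hairpin, was at or near background on all arrays. Its net signal in esophagus was 7.91 ± 2.03 at 28 weeks and 3.50 ± 1.92 at 46 weeks, and in serum 6.10 ± 1.47 and 3.87 ± 2.22. It was not detected in esophagus at 46 weeks, and it passed the No Probe limit in serum at 28 weeks only, where that limit was 4.87. None of its neighbouring levels can be put in an order beyond spot noise.

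**Figure D1:**
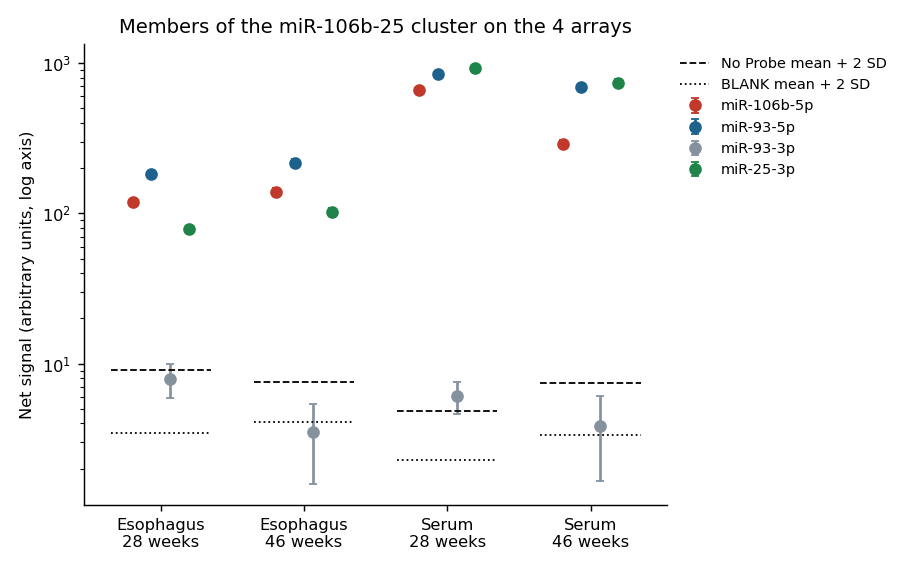
Net signal of the 4 cluster members (log axis, arbitrary units) on the 4 arrays, with bars of 1 spot-noise SD; dotted and dashed lines mark the BLANK and No Probe limits of each array. MiR-106b-5p, miR-93-5p and miR-25-3p lie far above both limits everywhere and highest in serum, while miR-93-3p lies around the limits.

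The other strands of the cluster did not follow their partners alike. The net signal of miR-106b-3p was 6.52 at 28 weeks and 10.2 at 46 weeks in esophagus, and 41.99 and 46.6 in serum, so it too was higher in both sera. That of miR-25-5p was 24.4 and 30.7 in esophagus and 20.97 and 15.0 in serum. MiR-25-5p thus had similar net signals in tissue and serum at 28 weeks, where its hairpin partner miR-25-3p differed most.

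To compare arrays, log2 net signals were centred on the median of the miRNAs detected on both arrays compared. The centring removed a shift of 0.25 between ages in esophagus, -0.18 between ages in serum, and -0.15 and 0.075 between esophagus and serum at 28 and 46 weeks. Each array enters an age comparison and a sample type comparison, so these are not independent of each other.

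The first comparison asks where the cluster is found, in tissue or in blood. At 28 weeks miR-25-3p was 10.5-fold higher in serum than in esophagus, miR-106b-5p 4.98-fold and miR-93-5p 4.14-fold. On the log2 scale the differences of esophagus minus serum were -3.39 (spot-noise SD 0.099), -2.32 (0.095) and -2.05 (0.093), and that of miR-93-3p was 0.52 (0.51), with a 95% interval of -0.47 to 1.52. Of the 4 members 3 were at least 4-fold lower in esophagus, as were 5.22% of 881 miRNAs detected on both arrays, while 6.36% were at least 4-fold higher. With normexp on the local background 2 of the 4 were at least 4-fold lower, as were 1.48% of all, and 2.27% were higher. In the authors' deposited table, of the 4 members 3 were, with 5.58% of its miRNAs lower and 5.58% higher. The median of the 4 members was -2.18 and that of all 881 was 0.022, with quartiles of -0.65 and 0.74. MiR-25-3p had the 8th lowest difference of the 881.

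At 46 weeks the same 3 strands were again higher in serum, miR-25-3p by 7.58-fold, miR-93-5p by 3.33-fold and miR-106b-5p by 2.19-fold. The log2 differences were -2.92 (spot-noise SD 0.11), -1.73 (0.11) and -1.13 (0.11). Only miR-25-3p was past 4-fold, where 6.44% of 776 miRNAs were at least 4-fold lower in esophagus and 6.31% higher. It was also the one member past 4-fold with normexp, at 2.06% lower and 2.19% higher, and in the authors' deposited table, at 5.61% lower and 6.3% higher. The median of the 3 members detected on both arrays was -1.73, against 0.077 for all 776 with quartiles of -0.55 and 0.72. MiR-93-3p was not detected in esophagus at 46 weeks and has no difference there.

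The size of the gap between serum and tissue differed among the members. The log2 difference of miR-93-5p minus that of miR-25-3p was 1.34 at 28 weeks (95% spot-noise interval 1.07 to 1.61) and 1.19 at 46 weeks (0.877 to 1.4997). MiR-106b-5p and miR-93-5p were close at 28 weeks, with a difference of -0.27 between them (-0.53 to -0.0049), and apart by 0.60 at 46 weeks (0.29 to 0.91), when serum miR-106b-5p was low. These differences between probes on the same pair of arrays do not depend on a scaling factor per array. Their intervals cover spot noise only.

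**Figure D2:**
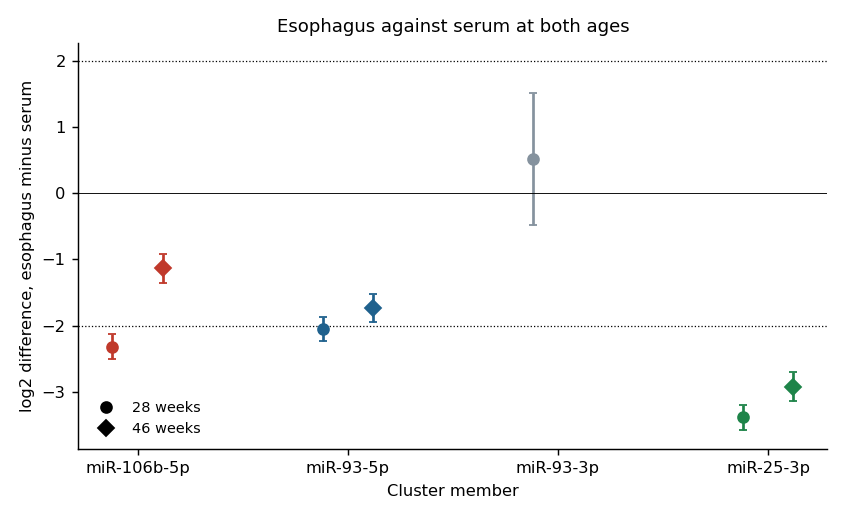
Log2 difference of esophagus minus serum for each member at 28 weeks (circles) and 46 weeks (diamonds), with 95% spot-noise intervals; dotted lines mark 4-fold. MiR-25-3p is past the line at both ages, miR-106b-5p and miR-93-5p at 28 weeks only, and miR-93-3p has no value at 46 weeks because it was not detected in esophagus.

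MiR-106b-5p and miR-93-5p were more weighted to serum than their seed relatives from the paralogous clusters, except for miR-106b-5p against miR-106a-5p at 46 weeks, where the interval of the difference includes 0. At 28 weeks the esophagus minus serum difference was -1.04 for miR-17-5p, -0.54 for miR-20a-5p, -0.56 for miR-20b-5p and -1.09 for miR-106a-5p. The difference of miR-93-5p minus each of these was -1.01 (miR-17-5p; interval -1.27 to -0.76), -1.51, -1.49 and -0.96 (miR-106a-5p; -1.22 to -0.70). At 46 weeks it was -0.95, -1.59, -1.34 and -0.85. For miR-106b-5p minus the same 4 it was -1.28, -1.77, -1.76 and -1.23 at 28 weeks. At 46 weeks it was -0.35, -0.99, -0.74 and -0.25, the first with an interval of -0.66 to -0.039 and the last of -0.56 to 0.063. Over the 10 other ways of processing the first, to miR-17-5p, ranged from -0.77 to -0.011.

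Serum was also the higher side for miR-92a-3p and miR-92b-3p, which share the seed of miR-25-3p. MiR-32-5p, of the same seed, was detected in esophagus at 8.11 and 7.29 net units and not in serum. MiR-363-3p stood at -0.18 (spot-noise SD 0.71) at 28 weeks, and miR-367-3p was not detected on any array. The esophagus minus serum difference of miR-92a-3p was -2.72 at 28 weeks and -3.60 at 46 weeks, and that of miR-92b-3p -1.96 and -3.03. At 28 weeks miR-25-3p was further towards serum than miR-92a-3p, with a difference of -0.67 between them (-0.97 to -0.37). At 46 weeks the order was turned, with a difference of 0.68 (0.34 to 1.01). Over the 10 other ways of processing the gap ranged from -1.64 to -0.57 at 28 weeks and from 0.16, with normexp, to 0.75 at 46 weeks.

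Within the hairpins, miR-25-3p and miR-25-5p parted. The difference of miR-25-5p was 0.36 (spot-noise SD 0.18) at 28 weeks and 0.95 (0.26) at 46 weeks, and the difference of miR-25-3p minus miR-25-5p was -3.75 and -3.88. The sign of miR-25-5p itself at 28 weeks turned to -0.12 with normexp and -0.17 with spike-in scaling, and at 46 weeks it stood at 0.22 with normexp. MiR-106b-3p stood at -2.54 (0.46) and -2.27 (0.30), on the serum side like miR-106b-5p, although its esophageal spot at 28 weeks was under the No Probe limit. With normexp, which adds 50 units and draws dim miRNAs toward 0, the differences of miR-106b-3p were -0.51 and -0.74.

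The erythrocyte miRNAs detected in both sample types were also higher in serum, like miR-106b-5p, miR-93-5p and miR-25-3p but unlike miR-93-3p. All 5 of the listed erythrocyte probes (miR-451a, miR-144-3p, miR-144-5p, miR-486-5p, whose probe also names miR-3107-5p, and miR-16-5p) were detected in serum and 4 in esophagus, where miR-144-5p was not detected at either age. Their summed net signal in serum was 43865 at 28 weeks and 28560 at 46 weeks, against 1138 and 1272 in esophagus. Of the 4 detected on both arrays at 28 weeks, 3 were at least 4-fold lower in esophagus, as were 5.22% of all 881 miRNAs. The log2 difference of miR-144-3p was -0.59. The liver miRNA miR-122-5p stood at -4.68 at 28 weeks and 0.54 at 46 weeks. The 4 leukocyte miRNAs were split between the sample types. Their esophagus minus serum differences at 28 and 46 weeks were 2.05 and 1.23 for miR-142-3p and 0.13 and 0.35 for miR-142-5p. MiR-223-3p stood at -0.25 and -1.40, and miR-150-5p at -1.69 and -2.13. Tissue RNA came from a mirVana kit and serum RNA from a miRNeasy Serum/Plasma kit, so the effects of kit and of sample type cannot be told apart. In whole tissue, fewer cells of a type and less RNA per cell cannot be told apart either. The part of erythrocyte RNA in the members' serum signal was not tested.

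The second comparison asks how the cluster's miRNAs differ between 28 and 46 weeks in the diseased esophagus. Each of the 3 members detected at both ages had a 95% spot-noise interval that includes 0. The log2 difference of 46 minus 28 weeks was -0.028 for miR-106b-5p (95% spot-noise interval -0.21 to 0.16), -0.0087 for miR-93-5p (-0.19 to 0.17) and 0.12 for miR-25-3p (-0.075 to 0.32). No member had a measured difference past 2-fold, and of the 843 miRNAs detected at both ages 1.42% were past it upward and 1.54% downward. With normexp no member was past it either, at 0.474% upward and 0.237% downward. In the authors' deposited table miR-93-3p alone was, at -1.41, with 1.91% of its miRNAs upward and 2.97% downward. The median of the 3 members was -0.0087 and that of all 843 was -0.011, with quartiles of -0.24 and 0.21.

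MiR-93-3p was detected in esophagus at 28 weeks and not at 46 weeks. Counted against the dimmest detected spot, its level was 2.32-fold lower at 46 weeks, a bound that leaves out spot noise. Both miR-93-3p spots lay under the No Probe limits of 9.06 and 7.57 net units, so the bound rests on signal that spots without a probe also reach. The authors' deposited table gave 19.4 and 7.3 for it. The other strands had differences of 0.39 (spot-noise SD 0.53) for miR-106b-3p and 0.082 (0.17) for miR-25-5p, both within spot noise.

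The relatives in the esophagus are given beside the 1.42% and 1.54% of all miRNAs past 2-fold upward and downward, so a count of 0 in a short list is near the background. Of the 12 probed strands of the miR-17 to miR-92a cluster, 8 were detected at both ages and none was past 2-fold, with a median of 0.10 and a range of -0.12 to 0.74. Of the 10 probed strands of the miR-106a to miR-363 cluster, 6 were detected and none was past 2-fold, with a median of 0.13 and a range of -0.092 to 0.28. MiR-17-5p stood at -0.086, miR-20a-5p at 0.15 and miR-92a-3p at -0.036. Of the markers of the esophageal lining, miR-203-3p stood at -0.0034 and miR-205-5p at -0.17, but at 2.51 and 0.23 with normexp. Past 2-fold among the marker lists were the erythrocyte miRNA miR-144-3p at -3.59 (-1.09 with normexp) and the liver miRNA miR-122-5p at 2.12 (0.69 with normexp). The other erythrocyte probes detected at both ages were not past it, miR-451a at -0.22, miR-486-5p at -0.098 and miR-16-5p at 0.032. The part of these cells in the esophageal values of the members was not tested.

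The third comparison asks the same of serum, and there the members parted. MiR-106b-5p was 2.0007-fold lower at 46 weeks, with a log2 difference of -1.0005 (95% spot-noise interval -1.22 to -0.78). MiR-93-5p stood at -0.11 (-0.33 to 0.11), miR-25-3p at -0.13 (-0.36 to 0.086) and miR-93-3p at -0.48 (-2.24 to 1.28), all with intervals that include 0. MiR-106b-5p was the one member past 2-fold, by a margin far smaller than its spot noise, where 3.89% of 822 miRNAs were past it downward and 7.79% upward. With normexp none of the 4 was, at 1.22% downward and 1.22% upward. In the authors' deposited table miR-106b-5p alone was, with 9.92% of its miRNAs downward and 3.46% upward. With the processing used here miR-106b-5p had the 32nd lowest difference of the 822, and the 24th lowest of 581 that passed the No Probe limit at both ages. The median of the 4 members was -0.31 and that of all 822 was 0.050, with quartiles of -0.29 and 0.42.

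**Figure D3:**
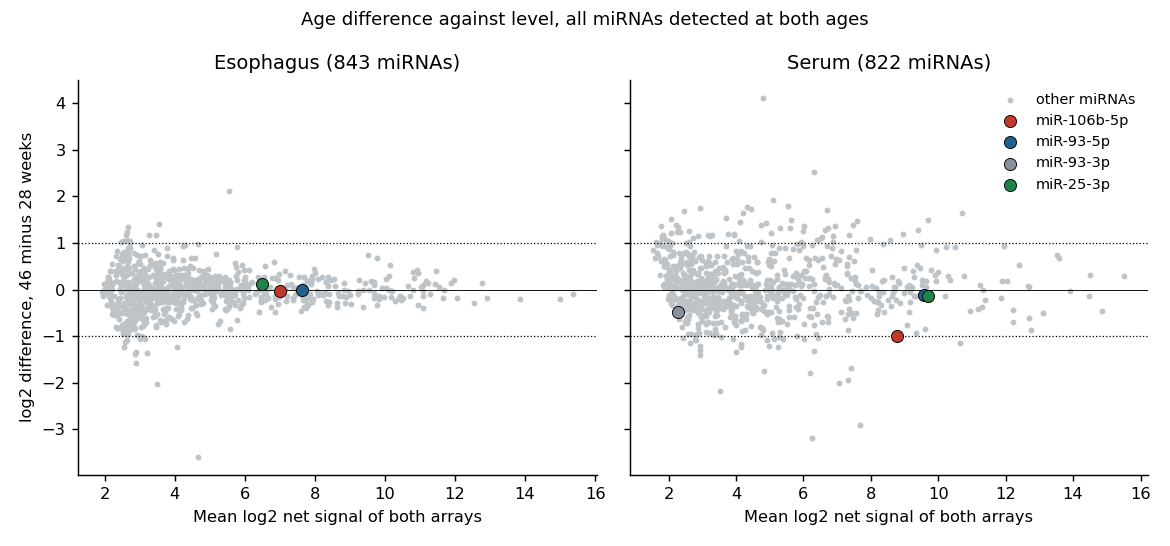
Log2 difference of 46 minus 28 weeks against mean log2 net signal for all miRNAs detected at both ages, in esophagus (843) and serum (822); cluster members are in colour and dotted lines mark 2-fold. In esophagus the members lie on the 0 line, and in serum miR-106b-5p lies on the lower 2-fold line, away from miR-93-5p and miR-25-3p.

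The gap between miR-106b-5p and its cluster partners in serum was larger than spot noise. Its age difference minus that of miR-93-5p was -0.89 on the log2 scale (-1.20 to -0.575), and minus that of miR-25-3p -0.87 (-1.18 to -0.55), while miR-93-5p and miR-25-3p differed by 0.021 (-0.29 to 0.33). In esophagus the corresponding gaps were -0.020 (-0.28 to 0.24) and -0.15 (-0.42 to 0.12). The other arm of its own hairpin, miR-106b-3p, stood at 0.33 in serum (0.056 to 0.61), and miR-106b-5p minus miR-106b-3p was -1.33 (-1.68 to -0.98). The value of miR-106b-3p was 0.035 with normexp, 0.025 in the authors' deposited table and -0.44 with spike-in scaling, while its gap to miR-106b-5p stayed between -1.34 and -0.99 over the 10 other ways of processing. Serum miR-25-5p stood at -0.30 (-0.81 to 0.21).

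How far miR-106b-5p was lower in serum depended on scaling. Over 10 other ways of processing the arrays its difference ranged from -1.77 to -0.87 and was past 2-fold in 7. Relative to the median of all miRNAs under each of these it ranged from -1.05 to -0.85. A factor per array cancels in that value, so settings that change only the scaling could not move it. The value of -1.77 came from scaling to the spike-in spots, which put the median of all serum miRNAs at -0.72. The authors' deposited table gave 1545.5 and 624.2 for miR-106b-5p in serum, a difference of -1.31 beside a median of -0.26 over the miRNAs it lists at both ages. The gap between miR-106b-5p and miR-25-3p was -0.69 with quantile normalization, -0.60 with no background subtracted and -0.30 with normexp. The intensity around the miR-25-3p spot in serum was 80.1 at 28 weeks and 249 at 46 weeks, while that around miR-106b-5p was 84.5 and 91.5; its part in the gap with normexp was not tested. The gap to miR-93-5p kept its direction under all 10, from -0.90 to -0.57. Settings that change only a factor per array could not move this or any other gap between probes. For miR-93-5p and miR-25-3p the difference ranged from -0.88 to 0.028 and from -0.90 to 0.0066, never past 2-fold, and it was above 0 when the No Probe mean was subtracted. The split of higher and lower miRNAs in serum also followed the scaling, at 64 and 32 here, 48 and 41 with quantile normalization, 39 and 55 unscaled, 31 and 89 in the authors' deposited table and 5 and 245 with spike-in scaling. In esophagus it was 12 and 13 here, and 30 and 6 unscaled. For esophagus against serum at 28 weeks it was 56 and 46 here and 39 and 79 with spike-in scaling.

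**Figure D4:**
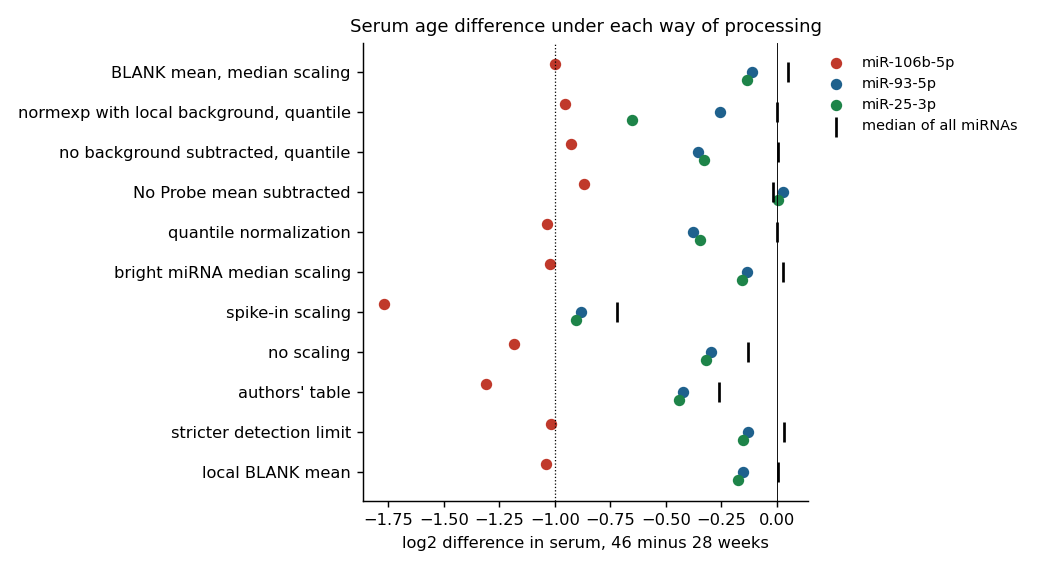
Log2 difference of 46 minus 28 weeks in serum for miR-106b-5p, miR-93-5p and miR-25-3p under the processing used here (top) and 10 others; black ticks are the median of all miRNAs and the dotted line marks 2-fold. MiR-106b-5p is the lowest of the 3 under each, by least against miR-25-3p with normexp on the local background.

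The seed relatives of miR-106b-5p did not share its serum difference. Between 28 and 46 weeks the net signal in serum was 732 and 591 for miR-17-5p, 447 and 384 for miR-20a-5p, 359 and 306 for miR-20b-5p and 445 and 405 for miR-106a-5p. Their log2 differences were -0.13, -0.035, -0.048 and 0.046, each with a spot-noise SD of 0.11 and a 95% interval that includes 0, and miR-106b-5p minus each was -0.87 (-1.19 to -0.56), -0.97 (-1.28 to -0.65), -0.95 (-1.27 to -0.64) and -1.05 (-1.36 to -0.73). Under the 10 other ways of processing the smallest of these gaps was -0.72, to miR-17-5p. For miR-93-5p the same gaps were 0.014, -0.078, -0.065 and -0.16, all with intervals that include 0. The fifth relative, miR-6383, had net signals of 0.023 to 6.33 and was not detected at both ages in either sample type.

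Of the seed relatives of miR-25-3p, miR-92a-3p and miR-92b-3p were higher in serum at 46 weeks. In serum the net signal of miR-92a-3p was 281 at 28 weeks and 514 at 46 weeks, and that of miR-92b-3p 71.0 and 156. Their log2 differences were 1.05 (spot-noise SD 0.11) and 1.32 (0.12), both past 2-fold, and miR-25-3p minus each was -1.19 (-1.501 to -0.877) and -1.45 (-1.77 to -1.13). With normexp they stood at 0.77 and 0.62, and in the authors' deposited table at 0.75 and 1.01. In esophagus neither differed by age beyond its spot noise, at -0.036 (0.13) and 0.029 (0.24). The other relatives were dim, with miR-32-5p and miR-367-3p not detected in serum at either age and miR-363-3p at 5.96 and 4.77 net units, a log2 difference of -0.14 (spot-noise SD 0.76).

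**Figure D5:**
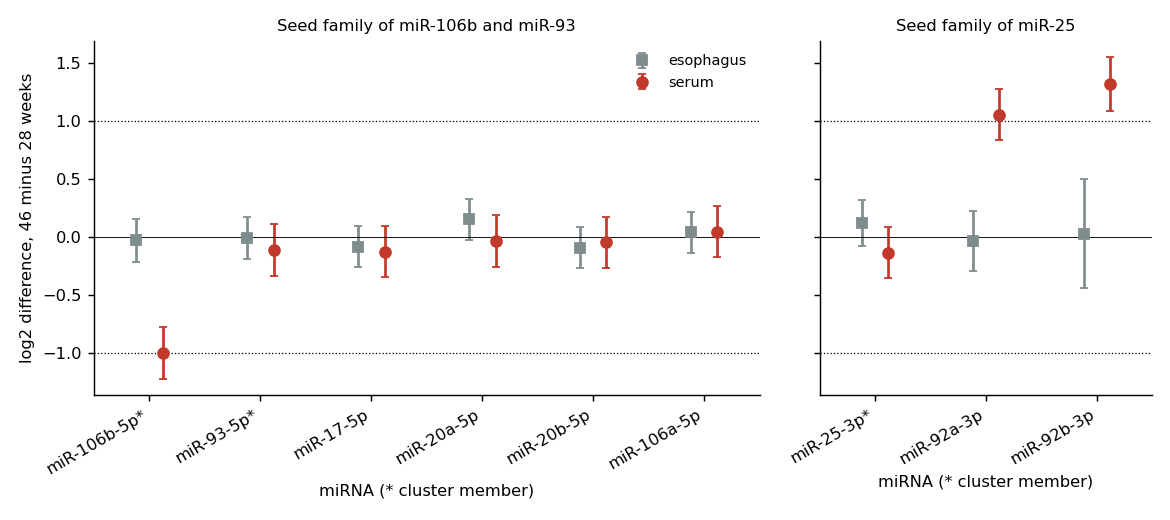
Log2 difference of 46 minus 28 weeks in esophagus (squares) and serum (circles) for miRNAs with the seed of miR-106b-5p and miR-93-5p (left) and of miR-25-3p (right), with 95% spot-noise intervals; asterisks mark cluster members and dotted lines 2-fold. The plotted esophageal values lie between -0.092 and 0.15, and in serum miR-106b-5p is low and miR-92a-3p and miR-92b-3p are high.

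In serum the strands of the paralogous clusters are read against the 7.79% of all miRNAs past 2-fold upward and 3.89% downward, and their counts lie near those shares. Of the 9 strands of the miR-17 to miR-92a cluster detected at both ages, miR-92a-3p was higher and none was lower, with a median of 0.24 and a range of -0.58 (miR-19a-3p) to 1.05. Of the 7 of the miR-106a to miR-363 cluster, none was past 2-fold, with a median of 0.045 and a range of -0.60 (miR-92a-2-5p) to 0.20.

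Other cell-type miRNAs also differed between the sera, and are given beside the member results because each serum was read on 1 array. Of all 822 miRNAs, 7.79% were past 2-fold upward and 3.89% downward. With normexp the shares were 1.22% upward and 1.22% downward. Of the 5 erythrocyte probes, miR-144-3p at -1.32 and miR-144-5p at -1.29 (spot-noise SD 0.72) were past 2-fold lower. With normexp they stood at -0.69 and -0.10, not past it. The miR-144-5p spot at 46 weeks, at 4.63 net units, lay under the No Probe limit of 7.48. MiR-451a stood at -0.46, miR-16-5p at -0.44 and miR-486-5p at 0.32. The liver miRNA miR-122-5p stood at -2.90. Of 4 leukocyte miRNAs, miR-223-3p was past 2-fold higher at 1.49 (0.65 with normexp). MiR-142-3p stood at 0.90, miR-150-5p at 0.18 and miR-142-5p at -0.027. MiR-223-3p was also listed for platelets, for which the other listed miRNA, miR-126-3p, stood at 0.18. The 3 striated muscle miRNAs detected at both ages were all past 2-fold lower, miR-1a-3p at -3.18, miR-133a-3p at -2.01 and miR-133b-3p at -1.93. With normexp these were -1.60, -1.49 and -1.25. Both squamous miRNAs were past 2-fold higher, miR-203-3p at 1.92 (0.60 with normexp) and miR-205-5p at 2.52 (1.47). Of the 4 columnar and glandular miRNAs so were miR-375-3p at 1.16 (0.042 with normexp) and miR-215-5p at 1.42 (0.34). With normexp only miR-205-5p among these was past 2-fold. The smooth muscle miRNAs miR-143-3p and miR-145a-5p stood at -0.76 and 0.37. The part of these cells in the serum difference of miR-106b-5p was not tested.

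The 3 members detected on all 4 arrays each had their own closest companions. By the root mean square distance between log2 net signals, centred on each miRNA's mean, miR-106b-5p was closest among 731 miRNAs detected on all arrays to miR-15a-5p (0.18), miR-770-5p (0.23) and miR-6243 (0.27). MiR-15a-5p, a cell cycle repressor of another seed, had net signals of 237 at 28 weeks and 243 at 46 weeks in esophagus. In serum it had 954 and 440, so it too was lower at 46 weeks. The serum age difference of miR-106b-5p minus that of miR-15a-5p was -0.067 (-0.38 to 0.25). MiR-15a-5p was picked for its small distance over these same arrays, so a small gap follows from the choice. For esophagus minus serum at 28 weeks the gap was -0.45 (-0.72 to -0.19). MiR-93-5p was closest to miR-3960 (0.081), miR-6239 (0.11) and miR-3473b (0.12), and miR-25-3p to miR-5122 (0.12), miR-1899 (0.12) and miR-30c-1-3p (0.24). None of these 3 members was among the 3 closest of another, and miR-93-3p was not ranked. Over 4 arrays such likeness is a description.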

How the data were processed

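Per the labels' protocols, RNA carried 1 dye, Hy5, and was hybridised to Toray 3D-Gene arrays. The deposited scanner files hold the median intensity of each spot and of the area around it, with readings at 3 gains joined by a fitted line, per the file headers, neither background-corrected nor normalized. The authors' deposited table holds linear intensities; each column equalled the spot intensity minus a level near the BLANK mean, times 1 factor. The sources used here do not give its filter. The number of arrays limits the precision.

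The BLANK mean was subtracted and log2 values were centred on the median of miRNAs detected on both arrays compared. This follows the net signal named in the rule for the members. Normexp with the local background, offset 50, and quantile normalization (limma 3.58.1, R 4.3.3) were tried as alternatives, with 8 others. A spot marked bad by the scanner was left out. Differences were counted at 2-fold between ages and 4-fold between sample types. The named miRNAs were all 4 members, their other strands, the paralogous clusters, seed relatives and the 3 nearest profiles per member detected on all arrays. Members and lists were chosen with earlier results of these data known. Sequences are from RefSeq; figures used Python 3.11.15 and matplotlib 3.10.9.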

Additional observations from a re-analysis of the deposited data

Results flagged for a closer look

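MiR-25-3p had age differences of opposite sign in the 2 sample types, 0.12 in esophagus and -0.13 in serum (log2, 46 minus 28 weeks). Each lies within its spot noise, each sample type has 1 array per age, and the difference between them was not tested. No group had the 4 samples needed to look for a sample far from the others.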

How the results depend on the processing

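No paired analysis was possible because each group has 1 array, and for the same reason no replicate could be left out. The median log2 difference of the members between ages in esophagus was -0.0087, and it was -0.15 with normexp and the local background, -0.21 with the No Probe mean subtracted and 0.24 unscaled. In serum it was -0.31, and -0.45 with normexp, -0.43 with the No Probe mean, -0.57 with quantile normalization, -1.08 with spike-in scaling, -0.49 unscaled, -0.61 (-0.605) in the authors' deposited table, -0.15 with the stricter detection limit, which drops miR-93-3p, and -0.16 with the BLANK mean of each probe's own block, an alternative chosen after seeing the data. For esophagus minus serum at 28 weeks it was -2.18, and -1.87 with normexp, -2.05 with no background subtracted, -1.83 with the No Probe mean, -2.38 with quantile normalization, -2.72 with spike-in scaling, -2.33 unscaled and -2.02 with the stricter limit. At 46 weeks it was -1.73, and -1.9996 with quantile normalization, -1.85 with scaling to bright miRNAs and -1.62 with the stricter limit.

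The count of miRNAs past the fold was 25 between ages in esophagus, and 6 with normexp, 1 with no background subtracted, 126 with the No Probe mean, 46 in the authors' deposited table and 3 with the stricter limit. In serum it was 96, and 20, 18 and 199 with normexp, no background and the No Probe mean, and 250 with spike-in scaling. Between sample types it was 102 at 28 weeks, and 33, 38 and 166 with the first 3 of these, and 99 at 46 weeks, and 33, 39 and 158. Where other causes are not named, the cause was not tested. No member past its fold changed sign under any alternative run. Past 4-fold at 28 weeks, miR-25-3p stayed under all 10, miR-106b-5p under 9 and miR-93-5p under 7. Signal over background limits miR-93-3p, whose spots lay under the No Probe limit on all arrays except serum at 28 weeks.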
